A study of Mus musculus with 96 samples.

Results

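The SOX2 antibody was used for chromatin immunoprecipitation and sequencing (ChIP-seq) in XEN cells and in embryonic stem (ES) cells after 4 days of forced GATA6 expression, and both profiles were compared here over 42403 GATA6-bound regions, which are all regions of the deposited table. Of the 96 libraries of the series, 2 carry the SOX2 antibody in XEN cells and 3 carry it at day 4. The comparison asks how much SOX2 signal the XEN profile holds, and how far it follows SOX17, GATA6 or plain input chromatin of the same cells.

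SOX2 is an HMG-box transcription factor that, with OCT4, keeps the early epiblast and ES cells pluripotent. SOX17 is a related HMG-box factor of the endoderm whose preferred DNA sequence resembles that of SOX2, and GATA6 is the zinc-finger factor that specifies the primitive endoderm (PrE), the layer that lines the epiblast and gives rise to the yolk sac endoderm. XEN cells are stem cells of this extraembryonic endoderm. In ChIP-seq, a region bound by the factor gathers more reads than the input, which is the same crosslinked chromatin sequenced without antibody.

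The day 4 samples were KH2 ES cells of the strain C57BL/6 x 129/Sv that carry a doxycycline (Dox)-inducible GATA6 cassette and had received 1 µg/mL Dox for 96 h, in medium with LIF. The XEN samples were the line X10 of the strain CD1, without treatment. Both kinds of cells were separated from feeders, fixed with DSG and formaldehyde and immunoprecipitated alike. KH2 and X10 are 1 line each, so the stage, line, strain, medium and Dox cannot be told apart in any difference between XEN cells and day 4. Day 0 are the same KH2 cells without Dox.

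Each deposited value is a mean over the libraries of 1 condition, in RPM, reads scaled to the total of the library, and it could be split into the whole reads of 2 libraries in all 42403 regions. These libraries are called A, the deeper, and B. The SOX2 libraries of XEN cells held 11167705 and 9453186 reads, and those of day 4 held 31235302 and 13440857. Of the 3 libraries labelled SOX2 at day 4, 1 repeats the number of a replicate, and the values hold 2 libraries. The median region had 5 and 4 reads in the XEN libraries and 23 and 11 at day 4, which limits what single regions can show in XEN cells. By the study's methods the chromatin was prepared separately for the libraries of most conditions, and GATA6 at day 0 and OCT4 in XEN cells had 1 preparation each. Whether the preparations came from separate cultures is not given in the sources used here, so p-values measure only the spread between these libraries, which may be technical. Fewer cells with SOX2 and less SOX2 per cell cannot be told apart in bulk chromatin.

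Sequences of 6 regions on which the results turn are shown first, as the + strand of mm10, with the best matches to the SOX17 and GATA6 motifs that the authors had located in capitals. The first 3 carried the SOX2 antibody signal in XEN cells without SOX17 or GATA6 signal, the fourth carried it with both factors, and the last 2 lost most of it from day 4 to XEN cells.

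Intergenic region near Id2, chr12:25266811-25266911: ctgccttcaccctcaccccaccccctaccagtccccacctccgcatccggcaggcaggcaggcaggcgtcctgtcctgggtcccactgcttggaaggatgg
Esrra exon region, chr19:6920335-6920435: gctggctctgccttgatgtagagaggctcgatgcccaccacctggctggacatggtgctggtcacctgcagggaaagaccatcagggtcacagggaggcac
Esrrb region, chr12:86471010-86471110: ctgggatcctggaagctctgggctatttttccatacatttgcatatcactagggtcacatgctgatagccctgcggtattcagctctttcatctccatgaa
Nup62cl intron, chrX:140051285-140051385: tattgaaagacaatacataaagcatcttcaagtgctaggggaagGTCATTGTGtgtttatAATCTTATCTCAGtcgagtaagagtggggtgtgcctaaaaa
Pdcd6ip intron, chr9:113657846-113657946: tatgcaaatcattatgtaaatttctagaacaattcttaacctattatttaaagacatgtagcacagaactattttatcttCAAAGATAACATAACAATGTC
Col4a1 intron, chr8:11255596-11255696: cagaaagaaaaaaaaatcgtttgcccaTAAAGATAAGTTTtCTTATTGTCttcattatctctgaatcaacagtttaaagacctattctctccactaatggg

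No best match to either motif lay within the windows of the first 3, and other matches were not located. In the Nup62cl and Col4a1 introns the matches to both motifs lay close together, and in the Pdcd6ip intron 1 run of capitals holds the GATA6 match followed by the SOX17 match. A match is a description of the letters and not a site of binding.

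Most of the SOX2 antibody signal of day 4 was missing in XEN cells. The GATA6 regions took up 6.10% and 6.63% of the reads of the 2 day 4 libraries, and 3.13% and 2.62% of the reads of the 2 XEN libraries. The inputs put 2.12% to 2.44% of their reads there, so the XEN libraries stood above input and far below day 4. In the same XEN cells SOX17 reached 8.59% and 8.77% and GATA6 reached 13.1% and 12.02%. The OCT4 antibody in XEN cells, with 1 library of 7501538 reads, stood at 2.25%.

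By region, the median SOX2 value was 0.815 RPM at day 4 and 0.517 RPM in XEN cells, beside 0.452 and 0.483 RPM in the inputs. On the scale of log2(RPM + 0.195), where 0.195 RPM is the pseudocount added to each value, the median change from day 4 to XEN cells was -0.52, with an interquartile range of -1.04 to -0.04. Input rose by a median of 0.07, GATA6 changed by -0.03 and SOX17 by -0.19, whereas OCT4 changed by -0.52 like SOX2. A pseudocount 10 times larger brought the SOX2 change to -0.16. These deposited means hold 1 read that the authors added per region and library. Single libraries and the tests between libraries were used without it. Each XEN library then lay below each day 4 library, with median changes between -0.82 and -0.59 for the 4 pairs of single libraries.

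In the deposited means, 11260 regions (26.6%) were at least 2-fold lower in XEN cells and 249 (0.587%) were at least 2-fold higher. Between 1 XEN and 1 day 4 library, without the added read, 13146 to 17883 regions were 2-fold lower and 690 to 1123 higher. On that single-library scale the 2 XEN libraries differed 2-fold or more from each other, in either direction, in 6975 regions (16.4%), and the 2 day 4 libraries in 2556 (6.03%). Across the 2 libraries a side, limma with Benjamini-Hochberg adjustment over all regions called 13269 regions lower (31.3%) and 121 higher (0.285%). After centring on the median change of -0.69, 3205 regions were called lower and 873 higher. With either day 4 library left out limma called 0 regions, although 10851 and 9335 regions had an unadjusted p under 0.05; the single remaining library was then assumed to vary like the pair of XEN libraries. edgeR's quasi-likelihood test on the whole reads called 13376 lower and 163 higher. With the day 4 libraries thinned to the depths of the XEN libraries, limma called 11016 lower and 119 higher.

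**Figure D1:**
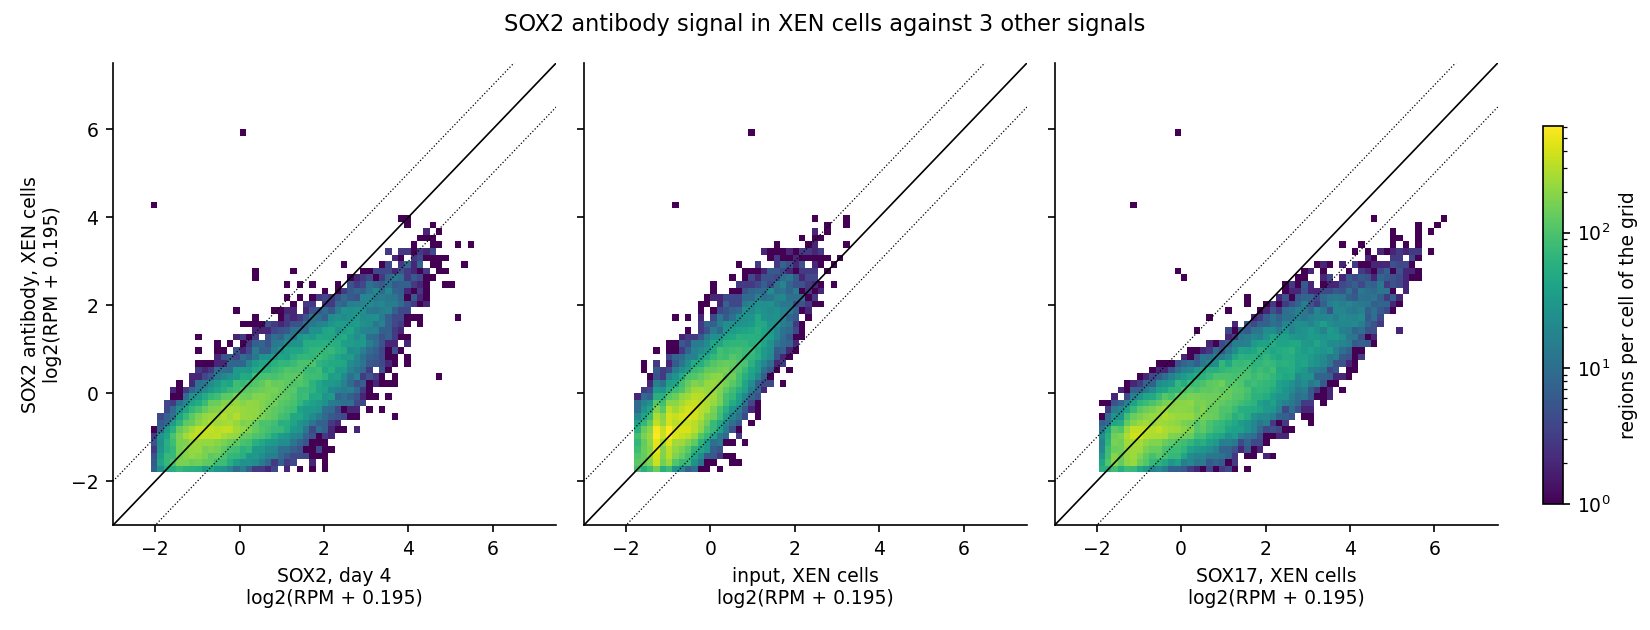
SOX2 antibody signal in XEN cells (vertical axis) against SOX2 at day 4, input in XEN cells and SOX17 in XEN cells (horizontal axes), all as log2(RPM + 0.195) over 42403 regions, coloured by the number of regions in each cell of the grid on a log scale. The solid line marks equal values and the dotted lines a 2-fold difference; most regions lie below the line in the plot against day 4 and around the line in the plot against input, and 2 regions stand alone at the top.

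Set against the input of the same cells, the SOX2 signal was present throughout the Dox time course and was close to nothing in XEN cells. The median of log2 SOX2 over input was 0.58 at day 0, between 0.66 and 0.82 from 8 h to day 4, and 0.09 in XEN cells. At least 2-fold over input were 14589 regions at day 0 (34.4%), 14969 at day 4 (35.3%) and only 1695 of the XEN profile (4.0%). The last share was like that of OCT4 in XEN cells (4.32%) and of GATA6 at day 0 (3.64%), before GATA6 was induced. The likeness held only above input. At least 2-fold under input were 542 regions for SOX2 in XEN cells, 2198 for OCT4 in XEN cells and 1970 for GATA6 at day 0. The OCT4 and GATA6 values came from 1 library each. In XEN cells, 37.0% of regions passed this level with the SOX17 antibody and 54.7% with the GATA6 antibody.

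Tests between libraries gave the same order. At day 4 limma called 17123 regions above input (40.4%), and in XEN cells it called 2 (0.00472%), with 4249 regions at an unadjusted p under 0.05. In the same XEN cells it called 16872 regions above input for SOX17 and 24836 for GATA6. edgeR on the whole reads called 17350 regions above input at day 4 (40.9%) and 412 in XEN cells (0.974%), and among regions with at least 10 reads limma called 538 in XEN cells. Thinning the day 4 SOX2 and input libraries to the depths of their XEN counterparts left 14998 regions with limma and 15751 with edgeR. Leaving out any 1 of the 4 XEN libraries left limma with 0 calls, with 2178 to 3630 regions at an unadjusted p under 0.05. Leaving out day 4 SOX2 library A or B left 0 calls at day 4, with 11807 and 10503 such regions.

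The difference between the 2 SOX2 over input contrasts was itself tested in 1 limma fit over 8 libraries. SOX2 over input was lower in XEN cells than at day 4 in 6823 regions (16.1%) and higher in 33. The number lower was 4995 with edgeR, and it ran from 759 to 7364 when 1 of the 8 libraries was left out, with the lowest number without day 4 library B.

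**Figure D2:**
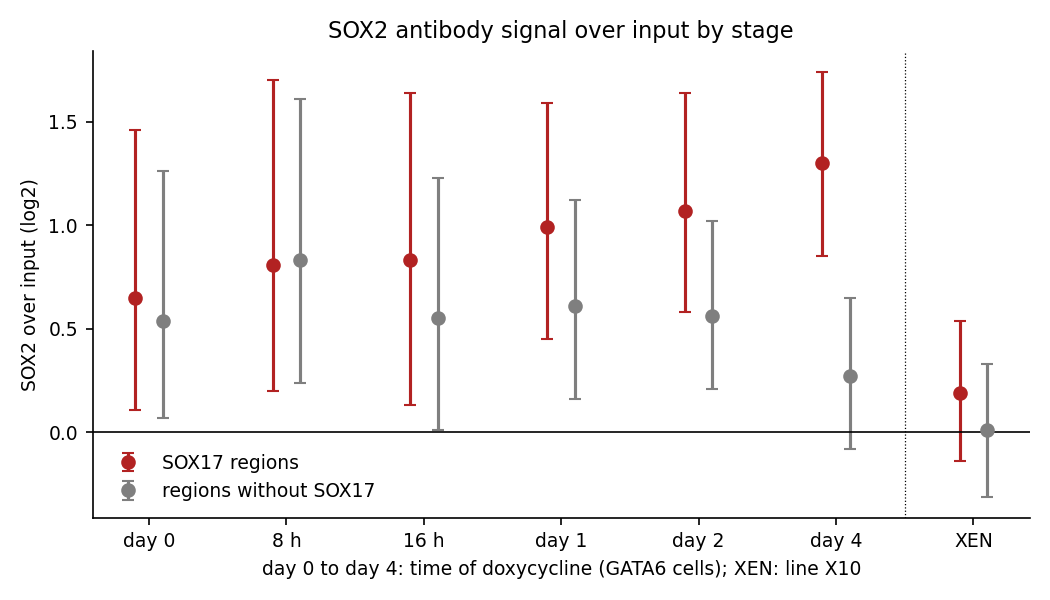
Median SOX2 over input (log2, points) with the interquartile range over regions (bars) at each time of Dox and in XEN cells, for 18861 regions with SOX17 and 23542 without. At day 4 the medians are 1.30 and 0.27; in XEN cells they are 0.19 and 0.01.

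What was left of the SOX2 signal in XEN cells followed the SOX17 and GATA6 profiles of the same cells and also their input. The 3 correlations were close, and after division by region width the value for input was below both factors. Input held fewer reads per region in XEN cells, with a median of 6 and 3. SOX17 had 14 and 9 and GATA6 had 19 and 19. Fewer reads lower a correlation, so these values do not rank input against the factors. Across regions, the Spearman correlation of SOX2 in XEN cells was 0.783 with SOX17, 0.772 with GATA6, 0.756 with input and 0.746 with SOX2 at day 4. With OCT4 in XEN cells it was 0.658, with SOX2 at day 0 it was 0.362, and with the width of the region it was 0.644. These values describe 42403 regions that share libraries, width and base composition, and regions are not replicates. Dividing by width left 0.747 with SOX17 and 0.752 with GATA6 but lowered input to 0.579, and SOX2 at day 0 fell to -0.173.

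The 2 SOX2 libraries of XEN cells resembled each other about as much as they resembled those of other antibodies. Library A correlated with SOX2 library B at 0.703 and with SOX17 library A at 0.749, and SOX2 library B correlated with SOX17 library A at 0.684. At day 4 the 2 SOX2 libraries correlated with each other at 0.899, and after thinning to the XEN depths at 0.855. In XEN cells libraries A and B correlated at 0.923 for SOX17, at 0.95 for GATA6 and at 0.708 for input, so the SOX2 pair was near the input pair.

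Day 4 SOX2 followed both endoderm factors more closely. There the correlation of SOX2 was 0.929 with SOX17, 0.941 with GATA6 and 0.747 with input of day 4, and after thinning it was 0.915, 0.927 and 0.736. Rank correlations that hold the other 2 signals and the width fixed separated the stages further. In XEN cells this partial correlation was 0.193 with SOX17, 0.201 with GATA6 and 0.312 with input. At day 4 it was 0.480 with SOX17, 0.483 with GATA6 and 0.25 with input, and thinned libraries gave 0.42, 0.422 and 0.214. Among these partial values input came first in XEN cells and last at day 4. For OCT4 in XEN cells the 3 values were 0.086, 0.081 and 0.224. SOX17 and GATA6 in XEN cells correlated at 0.924 with each other, and with input only at 0.66 and 0.646. Holding 1 of both factors fixed thus takes much from the other, and their separate shares are hard to resolve. For that reason the partial values do not rank input above SOX17 and GATA6 in XEN cells. At day 4, where input came last, SOX17 and GATA6 correlated at 0.926, much as in XEN cells. Without anything held fixed, input had the lowest correlation of the 3 in XEN cells. The XEN input libraries also correlated less with each other, at 0.708, than those of SOX17 at 0.923 and GATA6 at 0.95. The plain correlations therefore do not rank input below the factors either.

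At matched SOX17 signal the difference between the stages was plain. Regions with 0.5 to 1 RPM of SOX17 had a median SOX2 over input (log2) of 0.37 at day 4 and 0.02 in XEN cells. Regions with 16 to 32 RPM had 2.26 at day 4, over 738 regions, and 0.83 in XEN cells, over 577 regions. Above 32 RPM the medians were 2.49 in 103 regions and 1.10 in 87 regions. By edgeR, all 738 regions with 16 to 32 RPM of SOX17 were above input at day 4, and 18.7% of the 577 were in XEN cells; above 32 RPM the XEN share was 43.7%. Bins of GATA6 gave the same picture, with 2.28 at day 4 and 0.69 in XEN cells between 16 and 32 RPM. The XEN signal therefore rose with both factors, at a lower level, and reached about 2-fold over input in the strongest regions.

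**Figure D3:**
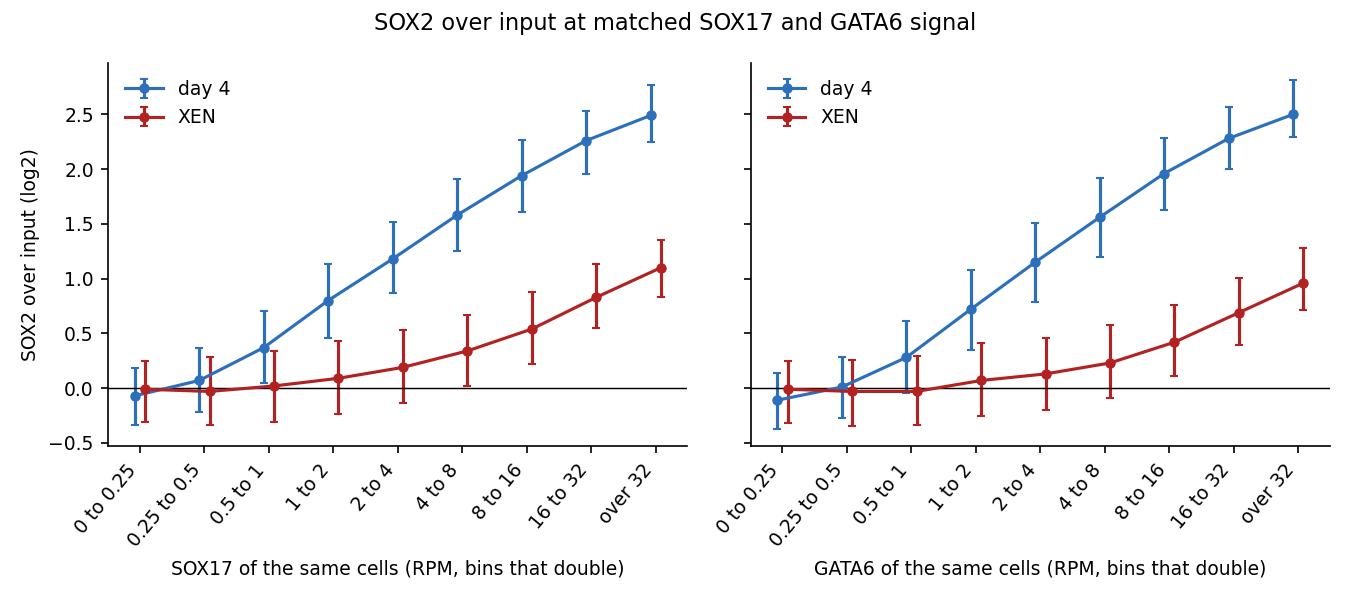
Median SOX2 over input (log2) with interquartile ranges in bins of SOX17 (left) and GATA6 (right) RPM of the same cells, at day 4 and in XEN cells. The XEN medians stay near 0 up to 1 RPM and reach 1.10 and 0.96 in the last bins, where day 4 stands at 2.49 and 2.50.

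Where both factors were high, the median XEN signal was higher with more of either. Among regions with 8 to 16 RPM of GATA6 the median SOX2 over input (log2) was 0.22 at 1 to 4 RPM of SOX17, 0.40 at 4 to 8, 0.49 at 8 to 16 and 0.65 above 16 RPM. Among those with 8 to 16 RPM of SOX17 it was 0.40, 0.49 and 0.67 at 4 to 8, 8 to 16 and over 16 RPM of GATA6. At 0 to 1 RPM of GATA6 the medians were -0.03 and -0.02 at 0 to 1 and 1 to 4 RPM of SOX17. At 1 to 4 RPM of GATA6 they were 0.06, 0.12 and 0.21 up to 8 RPM of SOX17, and 0.16 in the 27 regions with 8 to 16 RPM.

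The loss differed in size between the authors' classes of regions, which were drawn from SOX17 and pluripotency factor peak calls, clustered GATA6 signal, histone marks or motif matches. In regions with SOX17 the median SOX2 over input (log2) went from 0.65 at day 0 to 1.30 at day 4 and 0.19 in XEN cells, and in regions without SOX17 from 0.54 to 0.27 and 0.01. The gap between both classes was 1.03 at day 4 and 0.18 in XEN cells, where the pairs of single libraries gave 0.12 to 0.27. For OCT4 in XEN cells the gap was 0.0. Regions with pluripotency factors (OCT4, SOX2, ESRRB) at day 0 by the authors' peak calls went from 2.18 at day 0 through 0.53 at day 4 to 0.06 in XEN cells. Transient GATA6 regions ended at -0.11 in XEN cells, whereas early and late GATA6 regions stood at 0.21 and 0.24. Promoter regions had 0.82 at day 4 and -0.16 in XEN cells. Strong OCT4-SOX2 composite motifs marked the signal at day 0, with 1.98 beside 0.26 without a match. In XEN cells the medians were 0.06 with a strong match, 0.12 with a middle one, 0.13 with a weak one and 0.02 without. By edgeR, 1.02%, 1.75%, 1.19% and 0.19% of these 4 classes were above input in XEN cells, beside 0.97% of all regions. Strong SOX17 motifs had a median of 0.16 in XEN cells beside 0.01 without a match, and edgeR called 1.85% and 0.268% of them above input. Of the regions with SOX17, limma called 57.8% lower in XEN cells than at day 4, and of those without SOX17 10.0%, beside 31.3% of all.

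The 412 regions that edgeR called above input in XEN cells were SOX17 and GATA6 regions for the most part. SOX17 regions made up 92.7% of them and 44.5% of all regions, and the histone mark class that the authors named naive made up 60.9% and 18%. Their median was 2.95 RPM of SOX2 in XEN cells beside 0.906 RPM of input, 11.4 RPM of SOX17 and 15.1 RPM of GATA6. In the top 10% of all regions by SOX17 in XEN cells lay 78.9% of them, by GATA6 78.4% and by input 30.3%. They were wide, with a median of 1076 bases beside 525 over all regions. At day 4, 392 of them (95.1%) were also above input, beside 40.9% of all regions, and they made up 2.26% of those called at day 4. Their median SOX2 was higher at day 4, at 5.58 RPM.

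The 2 regions that limma called above input in XEN cells were of another kind. The first is the 253 bases at chr12:25266762-25267014, between genes and 169.7 kb from the start of Id2, which encodes an inhibitor of helix-loop-helix factors. It held 24.4 and 14.7 RPM of SOX2 in the XEN libraries (272 and 139 reads), 0.14 and 0.388 RPM of input, and no read in either SOX2 library of day 4. SOX17 stood at 0.169 and 0.171 RPM there and GATA6 at 0.0652 and 0.137 RPM in XEN cells, no more than in the inputs. Against a floor of 3 reads over both day 4 libraries, SOX2 was at least 297-fold higher in XEN cells. By limma it was above input by 5.44 ± 0.38 (log2, SE; adjusted p = 0.000918).

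The second is chr19:6919649-6920555 in Esrra, the gene of the orphan nuclear receptor ERRα, where the region holds 325 bases of coding exon and the GATA6 summit lies in that exon. Its SOX2 values were 70.0 and 56.0 RPM in the XEN libraries (782 and 529 reads), 0.672 and 0.967 RPM at day 4, and 1.12 and 2.07 RPM in XEN input. By limma it was above input by 5.19 ± 0.43 (log2, SE; adjusted p = 0.00259), with SOX17 at 0.507 and 0.77 RPM and GATA6 at 0.847 and 0.891 RPM. These were the 2 highest SOX2 values of all regions in XEN cells. They were also the 2 highest of the OCT4 antibody in XEN cells, with 136 RPM at Esrra and 46.5 RPM near Id2. The GATA6 antibody at day 0, in ES cells without Dox, had its highest value of all regions at Esrra as well, 96.4 RPM, beside 0.327 RPM near Id2. Different antibodies thus peaked there in some libraries and not in others, and the part of the antibody or library in these values was not tested.

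After these 2, the highest ratios to input lay in SOX17 regions. An intron of Nup62cl (chrX:140050469-140051777), a gene related to the nuclear pore protein NUP62, held 2.95 and 2.86 RPM of SOX2 in XEN cells and 0.209 and 0.388 RPM of input. SOX17 there was 9.29 and 12.2 RPM and GATA6 14.8 and 11.6 RPM. SOX2 at day 4 was 1.89 and 2.01 RPM, so this is a region where the XEN values lay above day 4, by 0.53 ± 0.31 (log2, SE), a difference limma did not call (adjusted p = 0.203). An intron of Tex14 (chr11:87443365-87444076), a gene of germ cell bridges, held 6.27 and 4.44 RPM in XEN cells and 10.7 and 12.8 RPM at day 4, and had fallen by 1.12 ± 0.31 on the log2 scale (limma adjusted p = 0.00768). Intergenic regions 835.0 kb from Ryr2 (chr13:11271585-11272241) and 231.4 kb from Triqk (chr4:13137922-13138581) followed, with 0.846 to 1.88 RPM of SOX2 in XEN cells and 1.25 to 2.01 RPM at day 4. Their inputs held 0.0 to 0.129 RPM in XEN cells, which is 1 and 0 reads near Ryr2 and 1 and 1 near Triqk. SOX2 had 21 and 8 reads and 18 and 16 reads there, so both ratios rest on inputs near the floor. Above input they were called by edgeR (adjusted p = 0.000111 and 8.43e-05) and not by limma (adjusted p = 0.22 and 0.16). Their SOX2 did not differ between the stages by limma (adjusted p = 0.807 and 0.778).

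Among regions without SOX17, the next 2 after those near Id2 and in Esrra lay 2.5 kb from Ifna13 (chr4:88641501-88642489) and 71.7 kb from Cxadr (chr16:78229616-78230213). The former held 2.87 and 1.38 RPM of SOX2 in XEN cells and the latter 1.52 and 0.952 RPM. Although classed without SOX17, they had 4.62 to 6.59 RPM of SOX17 in XEN cells.

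The largest falls from day 4 to XEN cells, by which the next regions were chosen, lay in SOX17 regions where SOX17 and GATA6 fell too. An intron of Pdcd6ip (chr9:113657363-113658566), the gene of the membrane-remodelling adaptor ALIX, went from 25.6 and 24.5 RPM of SOX2 at day 4 to 1.25 and 0.74 RPM in XEN cells. The limma change was -4.44 ± 0.31 (log2, SE; adjusted p = 4.65e-09). SOX17 went there from 23.0 and 14.3 RPM to 3.32 and 3.76 RPM, and GATA6 from 16.3 and 17 RPM to 4.63 and 6.99 RPM. An intron of Col4a1 (chr8:11255112-11256072), a basement membrane collagen that PrE cells secrete, went from 12.1 and 13.2 RPM to 0.537 and 0.317 RPM (limma change -4.39 ± 0.32, SE; adjusted p = 6.53e-09). A second Col4a1 intron region (chr8:11274137-11275433) went from 10.5 and 8.78 RPM to 0.537 and 0.423 RPM. An intergenic region 34.6 kb from Ccser1 (chr6:61145427-61146217) had 3.14 and 4.61 RPM at day 4 and no read in XEN cells, which is at least 24.6-fold lower against a floor of 3 reads over both XEN libraries. Input went from 0.906 and 0.791 RPM to 0.488 and 0.258 RPM in Pdcd6ip, and from 1.92 and 1.81 RPM to 0.419 and 0.258 RPM in the first Col4a1 region. Relative to input the limma change of SOX2 was -3.53 in Pdcd6ip (adjusted p = 1.03e-06) and -2.42 in the first Col4a1 region (adjusted p = 0.000785). In the second Col4a1 region it was -2.07 (adjusted p = 0.00364). XEN SOX2 over input (log2) was 0.19 and 0.0 in the Col4a1 regions and -0.96 near Ccser1.

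The largest rises, after the regions near Id2 and in Esrra, included regions where OCT4 in XEN cells or GATA6 at day 0 was high too. An intron of Trim30a (chr7:104427994-104428165), of a family of interferon-induced ubiquitin ligases, held 9.04 and 4.76 RPM of SOX2 in XEN cells and 0.992 and 1.19 RPM at day 4 (limma change 2.40 ± 0.33, SE; adjusted p = 1.63e-05). Its XEN inputs stood apart, at 0.488 and 4.26 RPM, and the higher of them was near the lower SOX2 value. Which input shares its chromatin with which SOX2 library is not known. Esrrb, the gene of a nuclear receptor of the pluripotency network, held the next (chr12:86470210-86471784), a region with 346 bases of coding exon. SOX2 was 7.07 and 4.87 RPM in XEN cells, 1.18 and 0.893 RPM at day 4 and 11.7 RPM at day 0 (limma change from day 4 2.31 ± 0.32, SE; adjusted p = 1.65e-05). OCT4 in XEN cells was 13.3 RPM there and GATA6 at day 0 was 6.7 RPM, while SOX17 and GATA6 in XEN cells were at 0.45 to 1.11 RPM. At Esrra and Esrrb both OCT4 in XEN cells and GATA6 at day 0 stood far above their medians over all regions, 0.533 and 0.49 RPM. In Trim30a they were 5.07 and 6.21 RPM, but input at day 0 was 3.91 RPM there too, beside a median of 0.448 RPM.

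At the strongest SOX17 and GATA6 regions of XEN cells SOX2 was high in RPM, and so was input. The region with the highest SOX17 (chr16:30482395-30484321), 67.4 kb from Tmem44, had 71.0 and 75.6 RPM of SOX17, and SOX2 was 17 and 12.4 RPM in XEN cells and 15.9 and 16.4 RPM at day 4. The region with the highest GATA6, in an intron of the chloride channel gene Clic6 (chr16:92491863-92494733), had 102 and 86.2 RPM of GATA6, and SOX2 was 17.6 and 11.4 RPM in XEN cells and 22.5 and 25.5 RPM at day 4. Their XEN inputs were 4.47 to 6.85 RPM, and SOX2 over XEN input had an edgeR adjusted p of 0.00953 near Tmem44 and 0.0747 in Clic6 (limma adjusted p = 0.338 and 0.429). Neither SOX2 change was called by limma (adjusted p = 0.762 and 0.0932), but relative to input both were lower in XEN cells, by -1.31 ± 0.40 and -1.31 ± 0.39 (log2, SE; limma adjusted p = 0.0169 and 0.0127). Both lie on chromosome 16, whose input was higher in XEN cells.

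**Figure D4:**
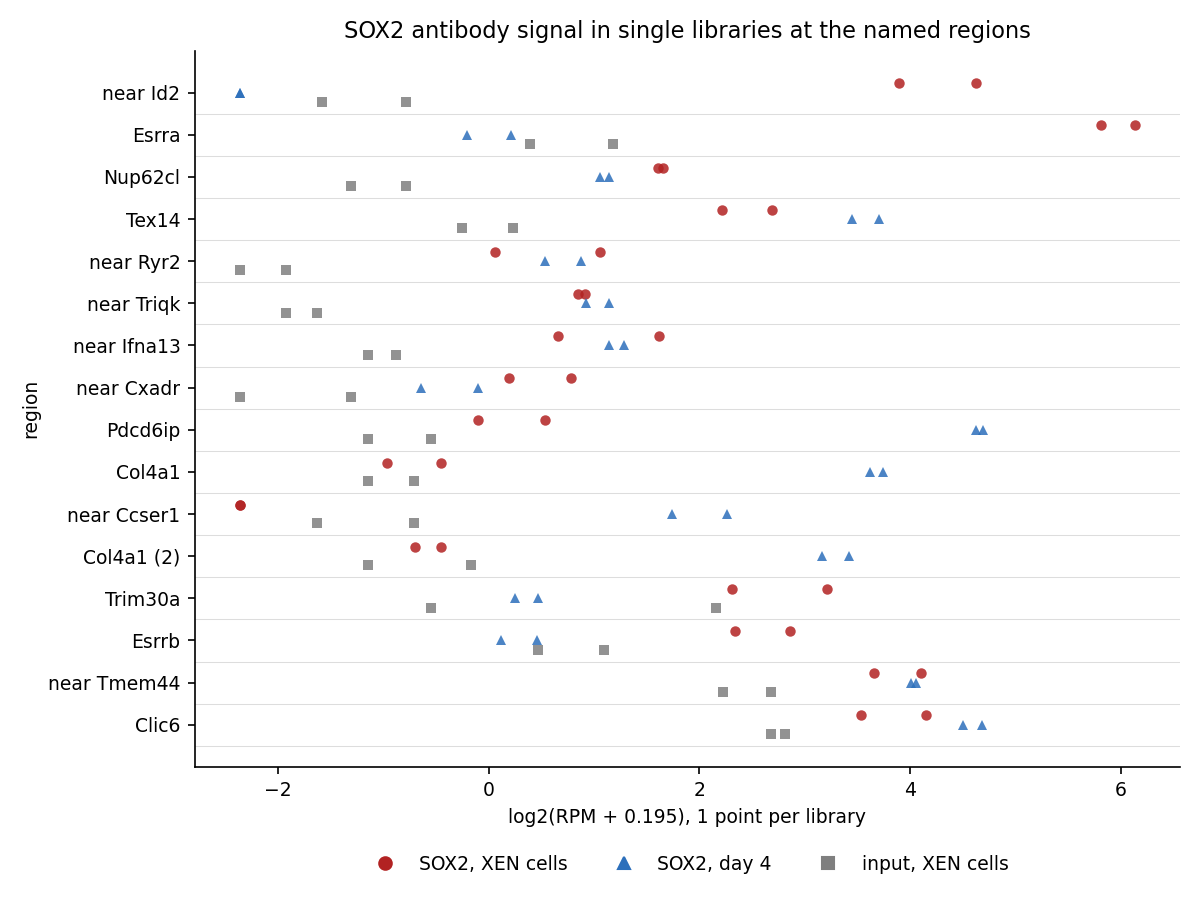
SOX2 in XEN cells, SOX2 at day 4 and the XEN input as log2(RPM + 0.195), with 1 point per library, at 16 named regions; a region outside genes is named by the nearest gene start. Near Id2, in Esrra, in Trim30a and in Esrrb the XEN points lie right of day 4, and in Pdcd6ip, Col4a1 and near Ccser1 they lie left of day 4.

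Around genes of the PrE the loss was broad. The list, chosen with earlier results of these data known, held 20 genes, among them transcription factors, laminins, collagens and endocytic receptors, with 194 regions within 20 kb. Expression was not analysed here. GATA6 and SOX17 at these regions had medians of 3.03 and 1.94 RPM in XEN cells and 0.49 and 0.683 RPM at day 0. Over all regions the medians were 1.34 and 0.849 RPM in XEN cells and 0.49 and 0.545 RPM at day 0. All regions were defined by GATA6 binding, so more GATA6 than before Dox follows from their choice. The identity of the XEN line was not tested. At least 2-fold over input for SOX2 were 49 of the 194 regions at day 0, 154 at day 4 and then 22 in XEN cells, beside 34.4%, 35.3% and 4.0% of all regions, and the median SOX2 over input (log2) was 0.37, 1.39 and 0.33. From day 4 to XEN cells limma called 136 of 194 lower (70.1%) and 0 higher, beside 31.3% lower over all regions. Of all regions with SOX17 it called 57.8% lower, and of the early GATA6 regions among them 67.3%. The listed regions were not matched to others by class. Above input by edgeR were 164 of them at day 4 (beside 40.9% of all) and 10 in XEN cells (5.15%, beside 0.974% of all).

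The highest SOX2 of the list in XEN cells lay 4.5 kb from the start of Cubn, the gene of the endocytic receptor cubilin. There SOX2 was 10.0 and 7.51 RPM in XEN cells beside 2.51 and 2.71 RPM of input, and 17.6 and 28.4 RPM at day 4. It was above input in XEN cells by edgeR (adjusted p = 0.00154) and lower than at day 4 by limma (-1.35 ± 0.33, log2, SE; adjusted p = 0.00347). An intron of Lama1, a laminin chain of the basement membrane, held 8.51 and 6.88 RPM in XEN cells and 18.1 and 21.9 RPM at day 4 (edgeR adjusted p against input = 0.0341). In the Col4a1 intron 3.9 kb from the start of Col4a2, SOX2 went from 33.4 and 40.6 RPM to 3.13 and 2.75 RPM (limma -3.56 ± 0.31, SE, adjusted p = 1.78e-07). Input there fell too, from 6.0 and 6.89 RPM at day 4 to 0.837 and 1.03 RPM in XEN cells. Relative to input the limma change was -1.01 ± 0.42 (SE) and was not called (adjusted p = 0.0842). SOX2 was still above input there in XEN cells by edgeR (adjusted p = 0.0192), though not by limma (adjusted p = 0.229). SOX2 in an intron of Gata4, the GATA factor next in line to GATA6, was 15.5 and 22 RPM at day 4 and 8.15 and 6.35 RPM in XEN cells (limma -1.34 ± 0.32, SE; adjusted p = 0.00262). A region 8.5 kb from Pdgfra, a receptor that marks the PrE, had 15.0 and 19 RPM at day 4 and 6.72 and 4.87 RPM in XEN cells (limma -1.53 ± 0.32, SE; adjusted p = 0.000734).

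Around pluripotency genes the median SOX2 over input was higher at day 0 than at day 4, and in XEN cells it was at input. The 20 genes, listed in the same way, had 102 regions, of which 57 were at least 2-fold over input at day 0, 30 at day 4 and then 5 in XEN cells, beside 34.4%, 35.3% and 4.0% of all regions, with median SOX2 over input (log2) of 1.26, 0.75 and -0.02. limma called 45 of 102 lower from day 4 to XEN cells (44.1%, beside 31.3% of all) and 1 higher, the Esrrb region above. edgeR called 40 above input at day 4, beside 40.9% of all regions, and 1 in XEN cells, the same Esrrb region, which is 0.98% beside 0.974%. Both shares are near the background. A region 15.4 kb from Klf2 had 16.7 RPM of SOX2 at day 0, 1.28 and 2.16 RPM at day 4 and 1.25 and 1.27 RPM in XEN cells, beside 0.977 and 1.68 RPM of XEN input. Near Nanog (4.9 kb) SOX2 was 10.2 RPM at day 0, 1.7 and 1.93 RPM at day 4 and 0.716 and 0.423 RPM in XEN cells, below both inputs of 0.977 and 1.03 RPM. The region 4.0 kb from Sox2 itself held 6.16 RPM at day 0 and 0.627 and 0.423 RPM in XEN cells, above the XEN inputs of 0.0698 and 0.0 RPM but not called by edgeR (adjusted p = 0.159). An intron of Sall4, a zinc-finger factor of both epiblast and PrE, held more, with 24.4 RPM at day 0, 25.4 and 30.1 RPM at day 4 and 6.89 and 3.81 RPM in XEN cells, where SOX17 was 21.4 and 26.4 RPM.

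Part of the spread between chromosomes moved with the input. From day 4 to XEN cells the median input change was 0.41 on chromosome 16, 0.39 on 19, 0.28 on 6, 0.24 on 18 and 0.18 on X, and between -0.02 and 0.11 on the other 15. The SOX2 change was -0.17, -0.23, -0.30 and -0.30 on chromosomes 16, 19, 6 and 18, and between -0.62 and -0.48 elsewhere. Of SOX2 over input the change lay between -0.73 and -0.56 on all 20 chromosomes. Chromosomes 6, 16, 18 and 19 held 16.4% of regions but 124 of the 249 that were 2-fold higher (49.8%) and 74 of the 121 that limma called higher (61.2%). Without these 4 chromosomes the median SOX2 change was -0.57.

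**Figure D5:**
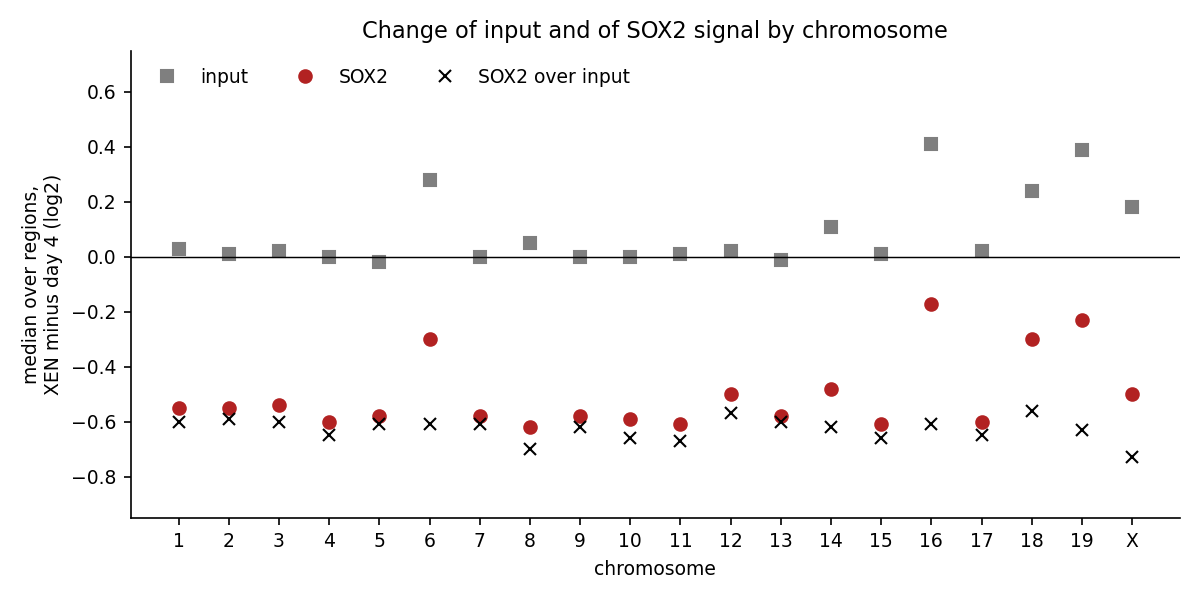
Median change from day 4 to XEN cells (log2) of input, SOX2 and SOX2 over input on each chromosome with at least 100 regions. Input is highest on chromosomes 16 and 19, at 0.41 and 0.39, where SOX2 falls least, and SOX2 over input is between -0.73 and -0.56 throughout.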

How the data were processed

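The authors sequenced ChIP and input libraries, used Bowtie2, cutadapt and SAMtools per the labels, removed duplicates by molecular identifiers, and counted reads in GATA6 regions (mm10). Deposited values are RPM, 1 per region and condition, averaged over libraries by the authors. The deposited motif scores come from FIMO and were used only as the authors' classes and match positions. Each RPM value equalled the mean over libraries of reads plus 1 added read, divided by depth, and this gave whole reads of 2 libraries in all 42403 regions, with 1 region of SOX2 and 30 of SOX17 at day 4 open to several solutions. For the day 0 SOX2 and input columns no such split was found, so these were used as the authors' means. Library depths ran from 6122848 to 31235302 reads, and the counting error of regions with few reads limits single values.

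Values were compared as log2(RPM + 0.195), with the pseudocount at percentile 5 of the nonzero SOX2 values. limma 3.58.1 with an intensity trend tested 2 libraries against 2, with Benjamini-Hochberg adjustment at 0.05, and edgeR 4.0.16 tested the recovered reads as an alternative chosen after seeing the data, in R 4.3.3. Correlations used scipy 1.17.1, and genes came from GENCODE M21. In simulated data for XEN against day 4, with 42403 regions, changed regions were all lower in XEN cells and had at least 100 reads over the 4 libraries. There limma found 39 of 100 regions changed 4-fold and 80 of 100 changed 8-fold, with 0 false calls. The median region held 5 and 4 reads in the XEN libraries and 23 and 11 at day 4, so these shares do not cover it. On the 42360 regions that edgeR kept it found 74 and 96, with 4 false calls, and reads were recovered exactly in 100.0% of 3000 simulated regions.

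The named regions, outside chromosomes 18 and Y, were the 6 with the highest SOX2 over input in XEN cells, the 4 highest among those without SOX17, the 4 largest falls and the 4 largest rises from day 4, the highest SOX17 and the highest GATA6 region of XEN cells, and, for each listed gene, the region within 20 kb with the highest SOX2 in XEN cells. Regions and gene lists were chosen with earlier results of these data known. Columns of per-sample values from outside the labelled samples, 14 in all, were not used, nor were the deposited columns of the authors' own comparison after Oct4 knockdown (fold changes and p-values).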

Additional observations from a re-analysis of the deposited data

Results flagged for a closer look

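SOX2 over input differed between XEN cells and day 4 in 6856 regions by limma over 8 libraries, and the values below are those log2 differences, XEN cells minus day 4, with the p of limma adjusted over all regions. It was higher in XEN cells near Id2 by 6.32 (adjusted p = 1.79e-13), in Esrra by 5.24 (adjusted p = 1.08e-15), in Esrrb by 1.97 (adjusted p = 0.00425) and in Trim30a by 1.90 (adjusted p = 0.0131). The value near Id2, and the one near Ccser1 of -4.19 (adjusted p = 2.77e-05), depend on the pseudocount, since 1 stage had no read there. It was lower in Pdcd6ip, at -3.53 (adjusted p = 1.03e-06), and in 2 Col4a1 introns, at -2.42 (adjusted p = 0.000785) and -2.07 (adjusted p = 0.00364). The regions with the highest SOX17, near Tmem44, and the highest GATA6, in Clic6, stood at -1.31 (adjusted p = 0.0169) and -1.31 (adjusted p = 0.0127).

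Among PrE genes it was lower at Col4a2 (-2.00, adjusted p = 0.0012), Sox17 (-1.53, adjusted p = 0.0092), Pdgfra (-1.45, adjusted p = 0.0107), Hnf4a (-1.43, adjusted p = 0.0385) and Foxa2 (-1.39, adjusted p = 0.0274). It was also lower at Lamc1 (-1.37, adjusted p = 0.0274), Cubn (-1.28, adjusted p = 0.0252), Lama1 (-1.20, adjusted p = 0.0327), Lamb1 (-1.20, adjusted p = 0.0395) and Gata4 (-1.19, adjusted p = 0.033). Among pluripotency genes it was lower at Tbx3 (-2.01, adjusted p = 0.00562), Sall4 (-1.92, adjusted p = 0.00102), Nanog (-1.84, adjusted p = 0.0187), Zfp42 (-1.81, adjusted p = 0.0285), Klf4 (-1.45, adjusted p = 0.0209) and Klf5 (-1.30, adjusted p = 0.0306).

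Signal of other antibodies stood at the regions with the highest SOX2 of XEN cells. OCT4 in XEN cells had 136.0 RPM in Esrra and 46.5 RPM near Id2, and GATA6 at day 0 had 96.4 RPM in Esrra, in 1 library each.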

How the results depend on the processing

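The direction of the SOX2 change was the same in all settings tried. Its median of -0.52 became -0.16 with a pseudocount 10 times larger, -0.67 with one 10 times smaller, -0.63 relative to input, -0.92 in regions above the median SOX2 and -0.67 with the added read removed, and leaving out 1 library gave -0.60 to -0.43. With the larger pseudocount 2084 regions were 2-fold lower and 5 were 2-fold higher. The number higher was 1272 with the smaller pseudocount, 544 relative to input, 80 in regions above the median and 125 without chromosomes 6, 16, 18 and 19. Leaving out 1 library gave 10328 to 13451 lower and 488 to 570 higher.

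The correlation with SOX17 was 0.833 by Pearson on log2 values, 0.661 in regions without SOX17, 0.544 between ratios to input, which share the input, and 0.693 to 0.759 with 1 library left out. With GATA6 it was 0.823 by Pearson, 0.845 in regions with SOX17, 0.616 without, 0.508 between ratios, and 0.684 to 0.751 with 1 library left out. With input it was 0.806 by Pearson, 0.579 per kb, 0.706 in regions of high input, 0.815 in regions with SOX17, 0.633 without, and 0.69 to 0.715 with 1 library left out. With SOX2 at day 4 it was 0.798 by Pearson, 0.582 per kb, 0.636 in regions without SOX17, 0.289 between ratios, and 0.674 to 0.714 with 1 library left out.

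The partial correlation with SOX17 was 0.251 by Pearson, 0.256 at high input, 0.232 in regions with SOX17, and 0.122 to 0.17 with 1 library left out. With GATA6 it was 0.232 per kb, 0.234 at high input, 0.254 in regions with SOX17, and 0.143 to 0.185 with 1 library left out. With input it was 0.378 by Pearson, 0.285 per kb, 0.344 at high input, 0.391 in regions with SOX17, 0.255 in those without, and 0.239 to 0.258 with 1 library left out. The SOX17 class difference in XEN cells was 0.06 with the larger pseudocount, 0.35 at high input, and 0.14 to 0.24 with 1 library left out.

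Centring reduced the calls between XEN cells and day 4 to 4078 and those above input at day 4 to 4512. Leaving out 1 library gave 0 to 16512 and 0 to 17638 calls, with 0 where a day 4 SOX2 library was left out. Regions above input in XEN cells numbered 412 by edgeR and 538 with at least 10 reads, and 0 with 1 library left out (range 0 to 0). The regions whose SOX2 over input differed between stages numbered 10684 with the larger pseudocount and 761 to 7394 with 1 library left out. The cause of these moves was not tested.

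Of 550 values of 55 named regions under the alternatives, 416 were on the same side, 103 were no longer called, 76 of them with a library left out, 7 became called and 24 changed sign. Centring turned the SOX2 change positive near Ryr2 (0.54), Triqk (0.54), Ifna13 (0.61), Tmem44 (0.53), Amn (0.06), Klf2 (0.33), Tfcp2l1 (0.07), Tdgf1 (0.27), Dppa4 (0.62), Tcl1 (0.07), Nr0b1 (0.07) and Otx2 (0.26). edgeR gave 0.01 near Ifna13, and thinning gave 0.02 near Ryr2, 0.0 near Ifna13 and -0.03 near Sox2. Without SOX2 XEN library B it was 0.35 near Ryr2, 0.40 near Ifna13, 0.07 near Tmem44 and 0.14 near Dppa4. Without day 4 library B it was 0.03 near Ryr2 and 0.06 near Dppa4, and near Sox2 it was -0.07 without XEN library A and -0.61 without day 4 library A. The other ends of these ranges with 1 library left out were -0.64 near Ryr2, -0.56 near Ifna13, -0.38 near Tmem44 and -0.26 near Dppa4, all without XEN library A, and 0.88 near Sox2 without day 4 library B. limma called none of these regions with all libraries in the fit.

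No paired analysis was possible because the recovered libraries carry no replicate numbers, so the planned replicate block was not run, and neither was DESeq2. The edgeR fits, the thinning, the removal of the added read, the chromosome split and all tests against input were chosen after seeing the data. With a median of 5 and 4 reads per region in the XEN libraries, small differences from input were not detectable in single regions.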
